A study of Mus musculus with 4 samples.

Results

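Collagen chains are the protein strands that wind in threes into the triple helices of connective tissue, and their transcripts were measured in the tibialis cranialis muscle of mice with and without a myostatin inhibitor. The chains were taken as every gene named by the family's pattern (Col, a type number, the letter a and a chain number) at a probe set that carried exactly 1 gene symbol. This gave 42 genes at 82 probe sets, of 18193 genes with 1 symbol at 45101 probe sets in all. They were described in classes by the structures they form, with 11 fibrillar chains, 5 of type VI, 6 of basement membrane type IV, 9 FACIT chains (fibril-associated collagens with interrupted triple helices) and 11 others. The ProMyo group was muscle injected with AAV8 ProMyo, an adeno-associated virus. The labels do not spell out ProMyo, which is taken here, from background knowledge, as the myostatin propeptide, a protein that binds and holds back the growth inhibitor myostatin. The Saline group was the same muscle of the other leg, injected with saline and with no empty vector. All 8 mice were male C57Bl/6 on a high fat diet from 8 weeks of age, were injected 4 weeks later and gave both muscles after a further 10 weeks, at 22 weeks of age. Each array carried equal amounts of RNA from 4 animals, animals 1-4 or 5-8, so there were 2 arrays per group. The promoter of the vector is not given in the labels, and the RNA came from whole muscle, in which fewer cells of a type and less RNA per cell cannot be told apart.

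In muscle, collagen is made mostly by fibroblasts and their progenitors between the fibres and by tendon cells at the fibre ends. Type I and type III collagen form the fibrils of the sheaths around fibres and bundles, type V starts and limits those fibrils, type IV builds the sheet of the basement membrane on each fibre and capillary, and type VI forms beaded filaments that tie the basement membrane to the fibrils. FACIT chains sit on the surface of fibrils. Myostatin is known from mice as an inhibitor of fibre growth, and signals of its family, TGF-beta above all, are known inducers of collagen genes in fibroblasts.

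Values are the deposited log2 levels after robust multi-array averaging (RMA), a difference is ProMyo minus saline on that scale, and each gene was read at its brightest probe set. The 10 markers of muscle fibres were above background on all arrays, with summed log2 levels of 14.99 and 14.95 in ProMyo and 14.92 and 14.84 in saline muscle. The saline 5-8 array stood apart, with the lowest upper quartile (2.97, where the rest had 3.15 to 3.20) and the brightest hybridization controls (11.1 on average, where the rest had 10.1 to 10.2). The 27 control probe sets for Bacillus genes were all at or below 0.99, and a chain at or below that level was taken to be at background. That level was set by the saline 5-8 array. On ProMyo 1-4, ProMyo 5-8 and saline 1-4 the highest of these controls was 0.68, 0.57 and 0.76. The log2 ratio of 3' to 5' probe sets, which moves with RNA integrity, was 0.58 and 0.74 for Gapdh in ProMyo muscle, against 0.90 and 0.81 in saline muscle. Its part in the results was not tested. Of the 15102 genes tested with limma, 0 had an adjusted p under 0.05, and 2.72% were lower and 3.07% higher in ProMyo muscle at an unadjusted p under 0.05.

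No collagen chain passed limma's test, in either direction, so the following are measured differences and not calls. Above background on all 4 arrays were 23 of the 42 chains, 10 were above it on some arrays and 9 on none. Against each array's own highest Bacillus control 26 chains were above on all 4 arrays, with Col2a1, Col4a5 and Col8a2 joining the 23. The 4 chains Col11a2, Col17a1, Col4a6 and Col6a5 were too dim to be tested, with a mean below the 25th percentile of all probe sets (0.45), which left 38. At an unadjusted p under 0.05, 2 of the 38 were lower in ProMyo muscle (Col1a1 and Col1a2) and 3 higher (Col19a1, Col20a1 and Col7a1). In both pools of animals 16 of the 38 chains (42.1%) were lower in ProMyo muscle, against 24.0% of all genes tested, and 6 (15.8%) were higher, against 29.0%. The counts by class given below are to be read against the same 24.0% and 29.0%. Counted over all 42 chains with no filter on dim probe sets, 18 were lower and 6 higher, against 25.6% and 26.3% of all genes. Without the saline 5-8 array both ProMyo arrays were set against saline 1-4, so the differences share that array and are not both within a pool. Lower in both were then 20 of 38, against 36.9% of all genes, and 7 were higher, against 29.5%. The groups did not overlap, with ProMyo lower, for 11 chains, against 15.7% of all genes, and with ProMyo higher for 3 chains, against 17.8%. Col6a4 and Col23a1 are among these 11 and among the 16 lower in both pools. Their ProMyo means, 0.30 and 0.39, lay below the filter, which they passed only through their saline values. The same holds for Col9a2 (0.39 in ProMyo muscle), which is among the 16 only. Each of these chains was within background on every array. Among the 23 chains above background on all arrays, 11 were lower in both pools, against 22.2% of the 10540 such genes, and 4 were higher, against 32.2%. The median difference of the 38 chains was -0.07, with -0.11 in pool 1-4 and -0.07 in pool 5-8, beside 0.01 over all genes tested. A difference of 1.5-fold or more in each pool was seen for 1 chain that was lower, Col1a2, and 1 that was higher, Col19a1, against 0.563% and 1.03% of all genes.

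**Figure D1:**
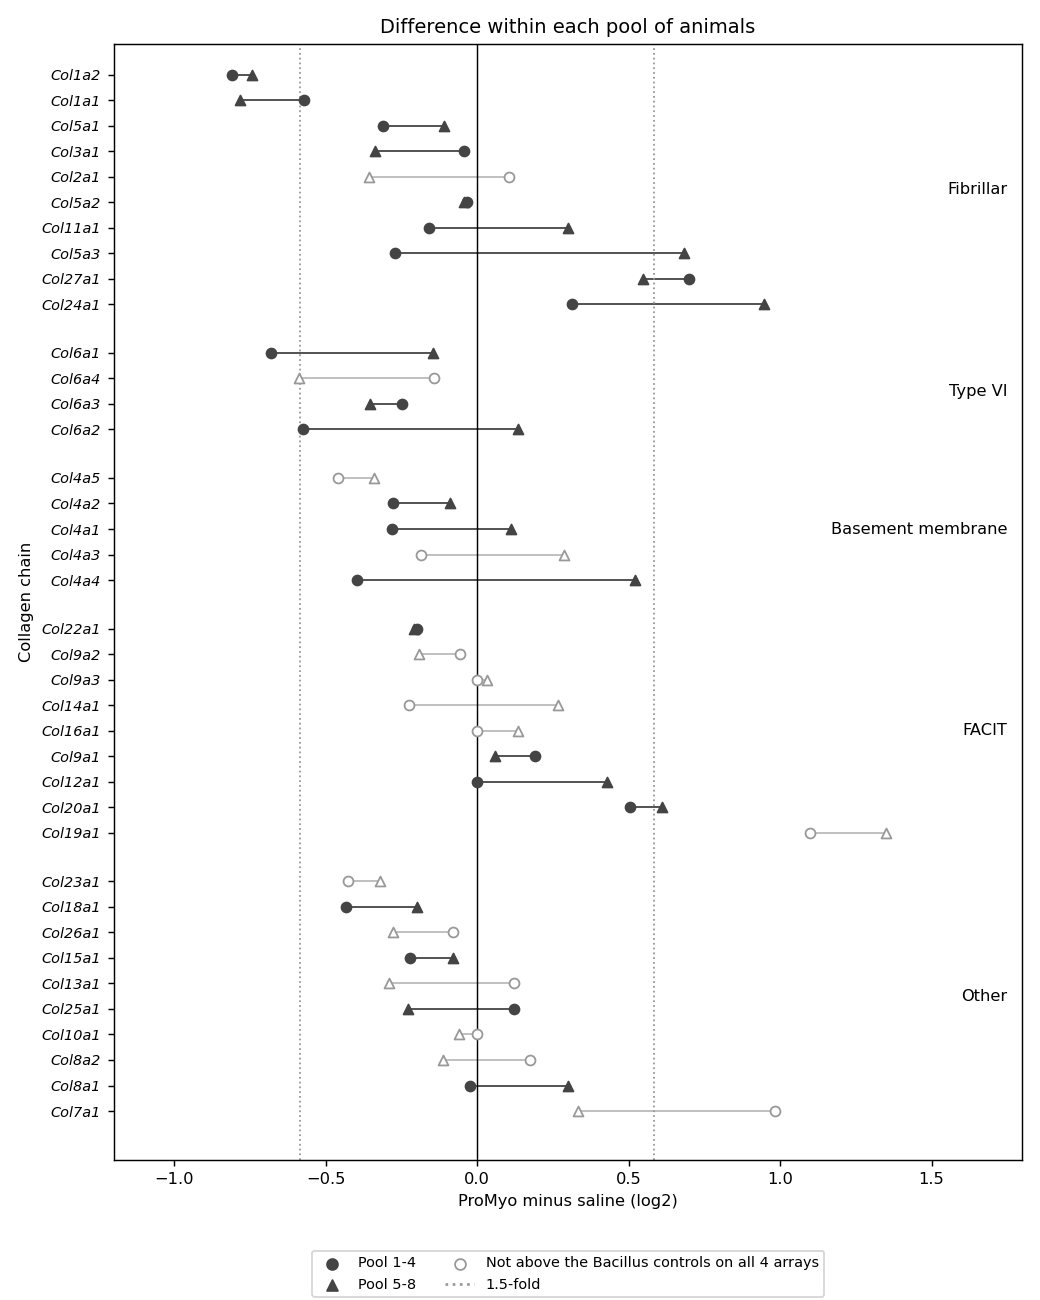
ProMyo minus saline (log2) within pool 1-4 (circles) and pool 5-8 (triangles) for the 38 collagen chains tested, by class, with open symbols for chains not above the Bacillus controls on all 4 arrays and dotted lines at 1.5-fold. The chains of type I, Col1a1 and Col1a2, stand to the left of the other fibrillar chains in both pools, and the 4 type VI chains all have a mean difference below 0.

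Type I collagen, the main fibril protein of tendon and of muscle connective tissue, is built from the products of Col1a1 and Col1a2. The start of Col1a2 is shown with those of Col3a1, whose product joins type I in the same fibrils, and of Col19a1, which had the highest difference of the family. Each sequence is the 250 bases before the annotated start, from RefSeq (mouse build GRCm38.p6), with CCAAT, the site of NF-Y, and CAGAC, the core of a Smad site, in capitals on either strand.
Col1a2, chr6:4505368-4505617, plus strand: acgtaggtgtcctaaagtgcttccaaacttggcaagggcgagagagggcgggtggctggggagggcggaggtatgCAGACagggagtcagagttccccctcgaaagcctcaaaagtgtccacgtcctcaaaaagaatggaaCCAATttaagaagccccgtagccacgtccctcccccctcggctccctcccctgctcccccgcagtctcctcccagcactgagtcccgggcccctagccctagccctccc
Col3a1, chr1:45311288-45311537, plus strand: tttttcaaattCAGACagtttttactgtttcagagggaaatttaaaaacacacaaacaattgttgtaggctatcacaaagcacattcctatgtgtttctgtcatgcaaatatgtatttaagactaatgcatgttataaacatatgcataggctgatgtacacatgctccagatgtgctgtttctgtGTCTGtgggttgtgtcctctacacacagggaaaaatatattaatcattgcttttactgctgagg
Col19a1, chr1:24587438-24587687, minus strand: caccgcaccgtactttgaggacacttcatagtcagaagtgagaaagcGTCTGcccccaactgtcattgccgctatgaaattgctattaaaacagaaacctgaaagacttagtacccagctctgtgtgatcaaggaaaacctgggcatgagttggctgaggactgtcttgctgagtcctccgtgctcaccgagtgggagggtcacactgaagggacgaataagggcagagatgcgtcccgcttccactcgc
The Col1a2 window holds 1 CCAAT, whose first base lies 109 bases before the start, and 1 CAGAC. The Col3a1 window holds 2 CAGAC and no CCAAT, and the Col19a1 window holds 1 CAGAC, on the opposite strand. No 2 of these matches overlap. The window of Col6a1 was also read, is not shown, and holds neither CCAAT nor CAGAC. RefSeq windows were found for 33 of the 42 chains, 36 windows in all, with none for Col1a1. CCAAT was present in 13 of the 36, or 36.1%, against 33.8% of all 32851 windows of this length. CAGAC was present in 15, or 41.7%, against 42.2%. GGGCGG, the site of Sp1, was present in 21, or 58.3%, against 32.7%, and TATAAA in 5, or 13.9%, against 12.4%. These are matches of letters on both strands and were not tested against the expression values.

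Col1a1 read 8.08 and 8.14 in ProMyo pools 1-4 and 5-8, against 8.65 and 8.92 in saline pools 1-4 and 5-8. The groups did not overlap, with ProMyo lower, and the difference was -0.68 ± 0.18 (log2 ± SE, n = 2 arrays per group; limma, adjusted p = 0.82), which puts saline muscle 1.60-fold above ProMyo muscle. Col1a2 read 6.79 and 6.86 in ProMyo muscle, against 7.60 in each saline pool, with a difference of -0.78 ± 0.15 (limma, adjusted p = 0.82) or 1.71-fold in the same direction. Its groups were also apart, with ProMyo lower. Within the pools the differences were -0.57 and -0.78 for Col1a1 and -0.81 and -0.74 for Col1a2. A second probe set of Col1a1, at 6.17 and 6.10 in ProMyo muscle, against 6.93 and 7.10 in saline muscle, differed by -0.88. The second of Col1a2 had 6.12 and 6.29 in ProMyo muscle, against 6.38 and 6.73 in saline muscle, a smaller difference of -0.35, though again without overlap. The remaining probe set of Col1a2 was at or below background on 2 arrays and split by pool (0.64 in pool 1-4 and -0.61 in pool 5-8). Without the saline 5-8 array the brightest probe sets gave -0.54 for Col1a1 and -0.78 for Col1a2, and over all settings tried Col1a1 stayed between -0.88 and -0.54 and Col1a2 between -0.83 and -0.35.

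The other fibrillar chains had smaller differences at their brightest probe sets than the type I chains, and the gap between them was not tested. Col3a1, the single chain of type III, read 7.66 and 7.66 in ProMyo muscle, against 7.70 and 8.00 in saline muscle. The groups were apart by a small step. The difference was -0.19 ± 0.18, with limma's 95% interval from -0.64 to 0.26, and without the saline 5-8 array it was -0.04. Its second probe set went the other way, with 5.52 and 5.54 in ProMyo muscle, against 4.81 and 5.71 in saline muscle, a difference of 0.27. Col5a1, a chain of the fibril-starting type V, read 4.37 and 4.19 in ProMyo and 4.68 and 4.30 in saline muscle (-0.21 ± 0.20), and its second probe set 0.02. Col5a2, its partner chain and the neighbour of Col3a1 on chromosome 1, read 5.02 and 4.53 in ProMyo and 5.05 and 4.57 in saline muscle (-0.04 ± 0.26). In Col5a2 the step between pools was wider than that between legs. A second Col5a2 probe set gave -0.65, at 2.89 and 3.07 in ProMyo and 3.41 and 3.84 in saline muscle, with both ProMyo values below both saline values. Col5a3, a minor type V chain, read 2.89 and 3.07 in ProMyo muscle, against 3.16 and 2.39 in saline muscle. It split by pool, with -0.27 in pool 1-4 and 0.68 in pool 5-8. Col11a1, known from cartilage and tendon, lay between 1.42 and 1.72 on all arrays and differed by 0.07.

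Col24a1 and Col27a1, fibrillar chains known mainly from bone and cartilage, were the fibrillar chains higher in both pools. Col24a1 read 3.16 and 2.43 in ProMyo muscle, against 2.85 and 1.48 in saline muscle, and Col27a1 read 1.82 and 2.44, against 1.12 and 1.89. For both the groups overlapped, and the differences were 0.63 ± 0.51 and 0.62 ± 0.34. Within the pools they were 0.31 and 0.95 for Col24a1 and 0.70 and 0.55 for Col27a1. Fitted with the paired pools as a replicate block, both had an unadjusted p under 0.05, and neither passed after adjustment (smallest adjusted p over the collagen chains 0.68, limma). The main cartilage chain Col2a1 was above background on 1 array, and Col11a2 on none. Over the 10 fibrillar chains tested, 5 were lower in both pools (Col1a1, Col1a2, Col3a1, Col5a1 and Col5a2) and 2 higher, with a median difference of -0.08.

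**Figure D2:**
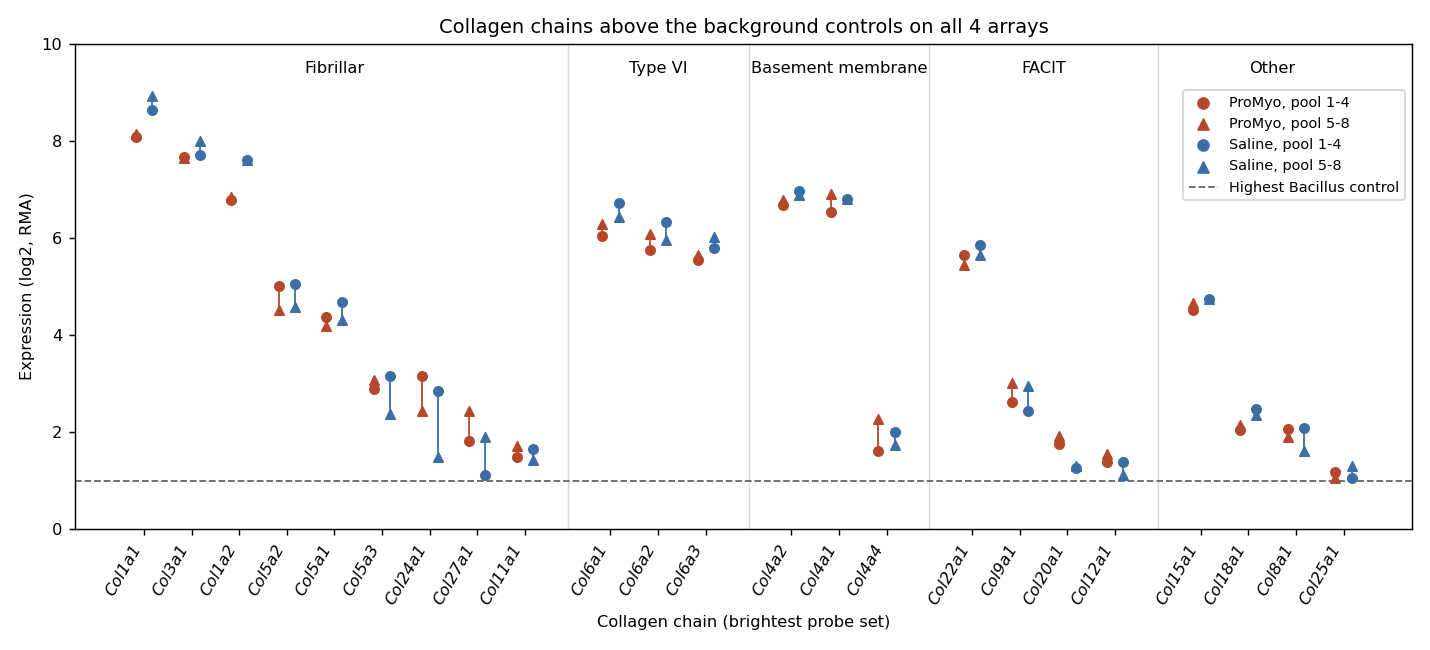
Log2 level of the brightest probe set in each of the 4 arrays for the 23 chains above the Bacillus controls (dashed line, 0.99) on all arrays, ProMyo in red to the left of saline in blue, circles for pool 1-4 and triangles for pool 5-8. Col1a1 and Col1a2 show ProMyo below saline with narrow groups, while Col24a1, Col27a1 and Col5a3 show a spread between pools as wide as the distance between the groups. Levels of different chains come from different probes and are not to be set against each other.

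The chains with a second probe set above background on all 4 arrays allow a check within the same arrays. There were 11 of them, and in 8 both probe sets had the same sign of difference, 7 of these lower in ProMyo muscle. The 3 that disagreed were Col3a1, Col5a1 and Col20a1. In Col4a1 and Col9a1 both probe sets lay close to 0, and in Col22a1 they gave -0.20 and -0.30. Lower in both pools at both probe sets were 4 of the 11, namely Col1a1, Col1a2, Col5a2 and Col22a1. For 15 of the 42 chains there was a single probe set, Col6a1, Col6a3 and Col4a2 among them, and no such check exists.

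**Figure D3:**
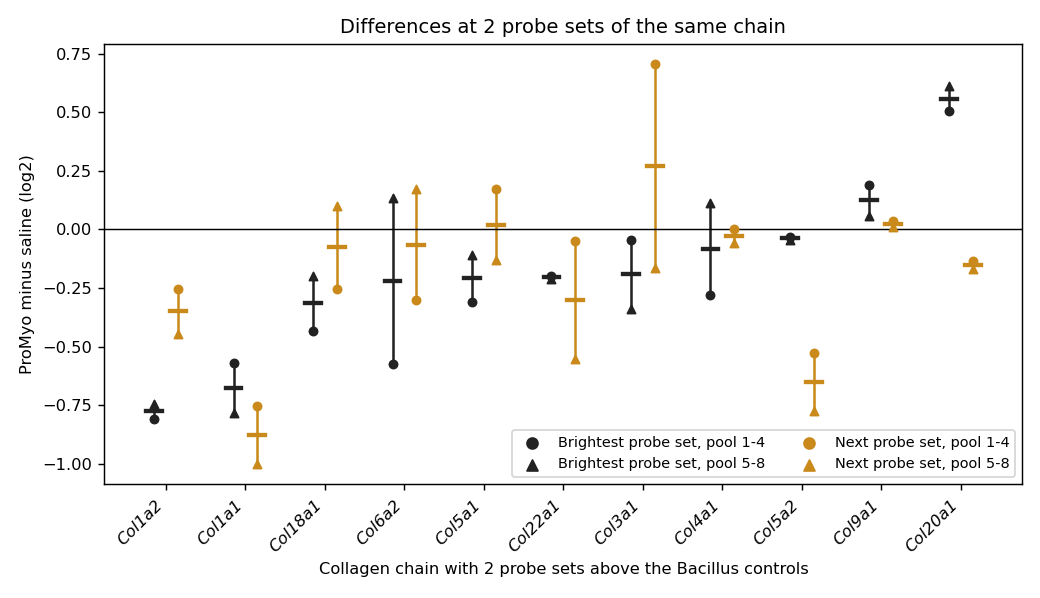
ProMyo minus saline (log2) at the brightest (black) and the next brightest (ochre) probe set of the 11 chains for which both lay above the Bacillus controls on all arrays, with circles for pool 1-4, triangles for pool 5-8 and a bar at their mean. Both probe sets of Col1a1 and of Col1a2 lie below 0 in both pools, whereas those of Col3a1, Col5a1 and Col20a1 have means on opposite sides of 0.

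Type VI collagen is assembled from the products of Col6a1, Col6a2 and Col6a3, and loss of any of these in people is known to cause congenital muscle disease. Col6a1 read 6.04 and 6.28 in ProMyo muscle, against 6.72 and 6.43 in saline muscle, and Col6a3 read 5.55 and 5.66, against 5.80 and 6.01. Neither chain's groups overlapped, and the differences were -0.41 ± 0.19 and -0.30 ± 0.17 (limma, adjusted p = 0.83 for each). Col6a2, the neighbour of Col6a1 on chromosome 10, read 5.75 and 6.09 in ProMyo muscle, against 6.32 and 5.96 in saline muscle (-0.22 ± 0.22), with overlap. The pools were not alike: in pool 1-4 the differences were -0.68, -0.57 and -0.25 for Col6a1, Col6a2 and Col6a3, and in pool 5-8 they were -0.15, 0.13 and -0.35. Without the saline 5-8 array they were -0.56, -0.40 and -0.19. A second probe set of Col6a2 gave -0.06. Col6a4, at 0.30 on both ProMyo arrays, and Col6a5 were within background on every array. The median difference of the 4 type VI chains tested was -0.33, below those of the other 4 classes, with 3 of 4 lower in both pools, Col6a4 among them. Col6a4 passed the filter (0.45) only through its saline values, with means of 0.30 in ProMyo and 0.67 in saline muscle. Over the 3 chains above background on all arrays the median was -0.30, with 2 lower in both pools.

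The basement membrane chains Col4a1 and Col4a2, which form the common type IV molecule and lie next to each other on chromosome 8, had differences close to their standard errors or below them. Col4a1 read 6.53 and 6.92 in ProMyo muscle, against 6.81 on each saline array, a difference of -0.08 ± 0.19 with a 95% interval from -0.58 to 0.41. The second probe set gave -0.03. Col4a2 read 6.69 and 6.79 in ProMyo muscle, against 6.96 and 6.88 in saline muscle. The groups were apart by a small step, with a difference of -0.18 ± 0.16 and an interval from -0.59 to 0.22. Whether type IV differed from type I in its response was not tested. Col4a4, a chain of the kidney form of type IV, read 1.61 and 2.26 in ProMyo muscle, against 2.01 and 1.74 in saline muscle, and gave -0.40 in pool 1-4 and 0.52 in pool 5-8. Col4a5, of the same form, read 0.76 and 0.89 in ProMyo muscle, within background, and 1.22 on each saline array, a difference of -0.40 ± 0.16 (limma, adjusted p = 0.82) whose size is uncertain for that reason. Against each array's own highest control Col4a5 was above background on all 4 arrays. Col4a3 was within background on every array and Col4a6 on 3 of 4. The median of the 5 chains tested was -0.08, with -0.28 in pool 1-4 and 0.11 in pool 5-8. Lower in both pools were 2 of the 5 (Col4a2 and Col4a5, 40.0%), and 0 were higher.

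The highest difference of the family was that of a FACIT chain, at a dim probe set. Col19a1, a chain known from developing muscle and from neurons in mice, read 2.63 and 2.28 in ProMyo muscle, against 1.53 and 0.93 in saline muscle, the last within background. The groups did not overlap, and the difference was 1.22 ± 0.26 (limma, adjusted p = 0.82), its size uncertain because 1 of the 2 saline values was within background. It was 1.10 in pool 1-4 and 1.35 in pool 5-8, and 0.92 without the saline 5-8 array. Its other 2 probe sets were also higher in both pools, by 0.29 and 0.16 on average, but lay within background on at least 3 of 4 arrays. Col20a1 read 1.76 and 1.92 in ProMyo muscle, against 1.26 and 1.31 in saline muscle (0.56 ± 0.16; limma, adjusted p = 0.82), or 1.47-fold. The other 3 probe sets of Col20a1 were all lower in ProMyo muscle in both pools, with mean differences of -0.15, -0.18 and -0.21. The last pair were within background on every array, and the higher reading rests on 1 of 4 probe sets.

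Col22a1, the FACIT collagen of the myotendinous junction, where fibres join the tendon, read 5.65 and 5.44 in ProMyo muscle, against 5.85 and 5.65 in saline muscle. The difference was alike in both pools, at -0.20 and -0.21, and the groups overlapped (-0.20 ± 0.18). Its second probe set gave -0.05 and -0.55 in the pools. Col12a1, a FACIT of tendon and of muscle connective tissue, read 1.39 and 1.55 in ProMyo and 1.39 and 1.12 in saline muscle (0.21 ± 0.18). Its relative Col14a1 split by pool, with -0.23 in pool 1-4 and 0.27 in pool 5-8 (mean 0.02), and was within background on 1 array. A second Col14a1 probe set, above background on 2 arrays, gave -0.22 and -0.35 in the pools. Col9a1, of the cartilage FACIT type IX, read 2.62 and 3.01 in ProMyo and 2.43 and 2.95 in saline muscle (0.12 ± 0.25), while its partners Col9a2 and Col9a3 were within background on every array. Col16a1 differed by 0.07 and was above background on 2 arrays. Of the 9 FACIT chains tested 2 were lower in both pools (Col22a1 and Col9a2) and 3 higher (Col19a1, Col20a1 and Col9a1), with a median of 0.07.

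Among the other chains, Col15a1 and Col18a1 encode the multiplexins of basement membranes, and Col18a1 holds the fragment endostatin. Col15a1 read 4.52 and 4.67 in ProMyo muscle, against 4.74 and 4.75 in saline muscle (-0.15 ± 0.16). Col18a1 read 2.04 and 2.15, against 2.47 and 2.35 (-0.32 ± 0.16; limma, adjusted p = 0.83). Both were lower in both pools with no overlap of groups, and a second probe set of Col18a1 gave -0.08. Col7a1, which forms the anchoring fibrils of skin, read 1.74 and 1.58 in ProMyo muscle, against 0.76, within background, and 1.24 in saline muscle. Its difference was 0.66 ± 0.22 (limma, adjusted p = 0.82), uncertain in size for the same reason as that of Col19a1, with 0.98 in pool 1-4 and 0.33 in pool 5-8, and 0.90 without the saline 5-8 array. Col8a1, of the short-chain network collagens of vessels, read 2.06 and 1.91 in ProMyo muscle, against 2.09 and 1.61 in saline muscle (0.14 ± 0.22). Its partner Col8a2 differed by 0.03. The transmembrane chains Col13a1, of the neuromuscular junction, Col23a1 and Col25a1 differed by -0.08, -0.37 and -0.05, and of these only Col25a1 was above background on all arrays, at 1.19 and 1.06 in ProMyo muscle, against 1.06 and 1.29 in saline muscle. Col26a1 was above background on 2 arrays, and Col10a1, of growth cartilage, and Col17a1, of skin hemidesmosomes, on none. Over the 10 of these chains that were tested, 4 were lower in both pools (Col15a1, Col18a1, Col23a1 and Col26a1) and 1 higher (Col7a1), with a median of -0.07.

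The enzymes and partners of collagen gave 0 calls among 76 genes tested with limma, in lists for folding, cleavage and crosslinking, fibril binding, receptors, degradation and gene regulation. At an unadjusted p under 0.05, 5 of the 76 were lower in ProMyo muscle (Lox, Fmod, Ogn, Mmp2 and Timp1) and 1 higher (Mmp3), beside 2.72% and 3.07% of all genes. Counts in both pools are to be read against 24.0% of all genes tested that were lower and 29.0% that were higher. Of the 21 genes that fold and modify procollagen, 6 (28.6%) were lower in both pools and 6 (28.6%) higher, near those shares, with a median of -0.03. The prolyl 4-hydroxylase subunits P4ha2 and P4hb, which stabilise the triple helix, differed by -0.37 ± 0.18 and -0.36 ± 0.18, and Plod3, a lysyl hydroxylase, by -0.38 ± 0.19. The difference furthest from 0 in the list was that of Plod2, another lysyl hydroxylase, which read 1.31 and 2.78 in ProMyo muscle, against 0.81, within background, and 1.15 in saline muscle (1.07 ± 0.49; limma, adjusted p = 0.83). P4hb read 7.68 and 7.48 in ProMyo muscle, against 8.05 and 7.82 in saline muscle, without overlap. Of the 9 genes of cleavage and crosslinking, 3 (33.3%) were lower in both pools (Lox, Loxl4 and Pcolce) and 2 (22.2%) higher (Adamts3 and Pcolce2). Lox, the lysyl oxidase that starts crosslinks, read 3.75 and 3.93 in ProMyo muscle, against 4.18 and 4.48 in saline muscle (-0.49 ± 0.19; limma, adjusted p = 0.82), and its relative Loxl4 differed by -0.64 ± 0.26. Adamts3, which removes the N-propeptide, differed by 0.50 ± 0.21.

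Of the 13 proteins that bind fibrils, 7 (53.8%) were lower in both pools, against 24.0% of all genes tested. Higher in both were 2 (15.4%; Lum and Postn), against 29.0%, and the median was -0.17. Ogn (osteoglycin), a small leucine-rich proteoglycan, read 6.43 and 6.15 in ProMyo muscle, against 7.21 and 6.88 in saline muscle (-0.75 ± 0.20; limma, adjusted p = 0.82), and its relative Fmod differed by -0.53 ± 0.16 while Lum differed by 0.63 ± 0.25. The 7 receptors had a median of 0.06, with Itgb1, the beta chain of the collagen-binding integrins, at 0.22 ± 0.17, Mrc2, which takes collagen up for breakdown, at -0.24 ± 0.16, and Lair1, an inhibitory receptor of immune cells, at -0.24 ± 0.18. Of the 10 degradation genes, 5 were lower in both pools (Mmp2, Mmp9, Mmp14, Timp1 and Timp2) and 1 higher (Mmp3). Mmp9 was within background on every array and Mmp14 on ProMyo 5-8 (0.88). Of the 5 genes above background on all arrays, 2 were lower in both pools (Mmp2 and Timp2) and 1 higher (Mmp3). The gelatinase Mmp2 read 5.19 and 5.54 in ProMyo muscle, against 6.05 and 5.82 in saline muscle (-0.57 ± 0.20), and Mmp3 differed by 0.53 ± 0.17. The inhibitor of these enzymes Timp1 read 0.18 and 0.84 in ProMyo muscle, both within background, against 1.11 and 1.28 in saline muscle (-0.69 ± 0.26; limma, adjusted p = 0.82), and its relative Timp2 differed by -0.13 ± 0.20. Of the 16 regulators, 4 were lower in both pools (Smad2, Ccn2, Nfya and Nfyb) and 1 higher (Smad3), with a median of -0.04. Smad2 and Smad3, which carry the signal of TGF-beta and myostatin receptors, differed by -0.37 ± 0.17 and 0.25 ± 0.17, and Ccn2, a connective tissue growth factor induced by TGF-beta, by -0.24 ± 0.15.

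Among cell markers the shares are to be read against 24.0% of all genes tested that were lower in both pools and 29.0% that were higher. Of 10 muscle fibre markers, 1 was lower in both pools and 8 were higher, with a median difference of 0.10. Of 11 fibroblast markers tested, all above background on every array, 8 were lower in both pools and 1 higher, and their summed log2 level was 10.35 and 10.28 in ProMyo muscle, against 10.50 and 10.54 in saline muscle. These sums are taken on the linear scale, so the brightest marker weighs most. Among the fibroblast markers that was Gsn (-0.31), and the median difference of the list was -0.11. This list includes Col15a1 and, at -0.96, the lowest of it, Pi16. Of 12 tendon cell markers, 11 above background on all arrays, 7 were lower in both pools and 1 higher, with summed levels of 10.24 and 9.88 in ProMyo muscle, against 10.44 and 10.40 in saline muscle. Fmod (-0.53) was the brightest of the 12 and weighs most in that sum, and the median difference was -0.28. The lowest was Chad, at -1.24, and the list shares Fmod and Kera with the fibril-binding proteins and Scx with the regulators. The fibroblast list shares Dcn and Dpt with the fibril-binding proteins. No marker list had a member past limma's test over all genes. At an unadjusted p under 0.05, 1 fibroblast and 3 tendon cell markers were lower, against 2.72% of all genes. So were 2 macrophage markers (C1qb and Mrc1), 1 Schwann cell marker (Mbp) and 1 adipocyte marker (Pck1). Pck1 was within background on every array. It passed the filter only through its saline values (0.78 and 0.80, against 0.15 and 0.28 in ProMyo muscle). Tagln, of smooth muscle and pericytes, was higher, against 3.07% of all genes. The transcription factor Scx and the membrane protein Tnmd, which define tendon cells, differed by 0.07 and -0.13. Macrophage markers summed to 8.07 and 7.91 in ProMyo muscle, against 8.34 and 8.11 in saline muscle, with 4 of 10 lower in both pools and 1 higher. Endothelial, smooth muscle and pericyte, and Schwann cell sums overlapped between the groups. Satellite cell sums were 5.85 and 5.75 in ProMyo muscle, against 5.99 and 5.85 in saline muscle, with Chodl (-0.20) the brightest of the 5 markers, while Pax7, Myf5 and Cdh15 differed by 0.09, 0.03 and 0.16 and the median was 0.03. Adipocyte sums were 11.96 and 11.91 in ProMyo muscle, against 11.78 and 11.87 in saline muscle, with Car3 (0.15), which muscle fibres also express, the brightest of the 7 markers. Without regard to brightness the adipocyte median was -0.06, with 2 lower in both pools (Retn at -0.46 and Pck1, within background, at -0.57), Car3 alone higher, and Adipoq at -0.60 with overlap. Of the 4 cartilage and bone markers tested, 0 were above background on all arrays, and Matn3 and Snorc were above it on none. The part of these cell markers in the collagen differences was not tested.

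**Figure D4:**
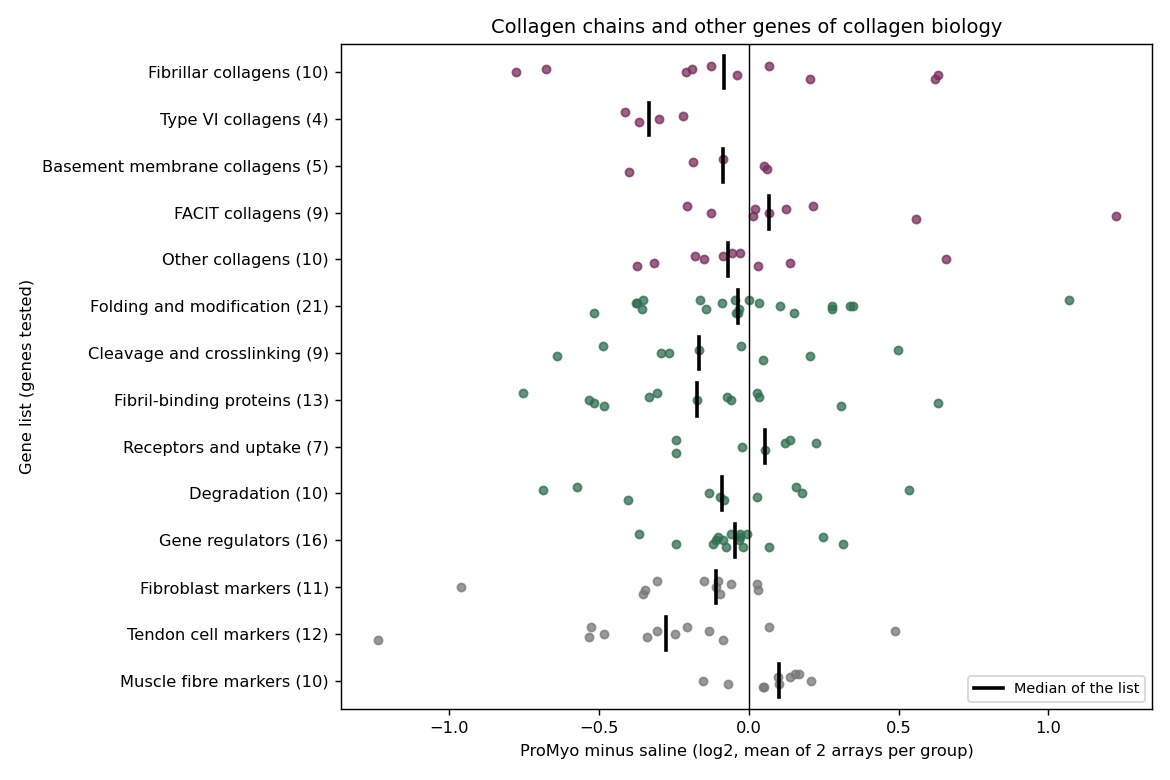
ProMyo minus saline (log2) of each gene tested (points) and the median of each list (black bars) for the 5 collagen classes (purple), 6 lists of other collagen genes (green) and 3 lists of cell markers (grey), with the number of genes in brackets. Type VI collagens have the lowest median of the collagen classes (-0.33), tendon cell markers stand at -0.28 and muscle fibre markers at 0.10. Over the 3 type VI chains above background on all arrays the median was -0.30.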

How the data were processed

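Values in the deposited table are log2 levels of probe sets; the submitters' processing notes name RMA and Affymetrix Expression Console, without versions, and the log base was read from the range of the values. Array medians of 1.06 to 1.11 are low for RMA, and no further scale step is stated. Of 45101 probe sets, 34945 had 1 symbol, 932 several and 9211 none in the platform annotation (34741 were found in RefSeq GRCm38.p6 by gene ID, with 0 symbols changed), and 64 controls were left out, 13 of them with a symbol, which complete the total. A gene was read at its brightest probe set by the mean of 4 arrays and tested where that mean reached the 25th percentile of all probe sets (0.45). ProMyo was compared with saline over 15102 genes in limma 3.58.1 (R 4.3.3; lmFit, eBayes without trend, 2 residual and 3.16 prior degrees of freedom), with Benjamini-Hochberg adjustment over all genes and a threshold of 0.05; the step was tested on simulated data. Array number, 2 per group, limits the precision (median SE 0.19), and each array pools 4 animals. Both legs came from the same animals, so the pools are paired by design (deviations of same-numbered pools correlated with r = 0.16); the main comparison leaves the pairing out.

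The members, lists and alternatives were chosen with earlier results of these data known. Lists are described by counts and medians and were not tested. Given array by array are up to 6 chains per class, the brightest above background on all arrays. So are chains at least 1.5-fold apart in both pools or with an unadjusted p under 0.05. Up to 3 genes per pathway list are given, with the smallest unadjusted p among those above background on all arrays. Members behind a count of 5 or fewer are given for the collagen classes and pathway lists. For the marker lists such members are named only in part. Some of all these are given by difference alone. Fuller values of Col24a1, Col27a1 and Plod2, and the markers Scx, Tnmd, Gsn, Pi16, Chad, Chodl, Pax7, Myf5, Cdh15, Car3, Retn, Pck1 and Adipoq, were picked after their values were seen. In 7 of the 38 chains tested 2 arrays had identical deposited values, and a difference of 0 counts as neither lower nor higher.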

Additional observations from a re-analysis of the deposited data

How the results depend on the processing

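No collagen chain passed limma's adjusted threshold in the 12 other settings, the paired pools as a replicate block included (0 of 38; smallest adjusted p 0.68, and 7 chains at an unadjusted p under 0.05 in place of 5). Without the saline 5-8 array that p was 0.61 and without saline 1-4 it was 0.46. Where an array is left out, the lone array of its group is set against both of the other group. The differences then share an array and are not both within a pool. Chains lower in both differences were 11 of 26 with the filter at the 50th percentile (42.3%, against 22.2% of all genes) to 20 of 38 without saline 5-8 (52.6%, against 36.9%). Their share was lowest with the mean of all probe sets (38.9%, against 25.9%). Chains higher in both were 4 without ProMyo 5-8 (against 35.2% of all genes) to 11 without saline 1-4 (against 42.7%). Chains at least 1.5-fold lower in both differences were 2 with median-centred arrays and with quantile normalization and 1 to 2 without an array. Those at least 1.5-fold higher were 0 with the mean of all probe sets and with the next brightest, and 1 to 3 without an array.
The median difference of the collagen chains was -0.10 with no filter, -0.11 at the next brightest probe sets and -0.10 to -0.058 without an array. That of the fibrillar chains was -0.13 with no filter, -0.038 with the filter at the 50th percentile, -0.11 with quantile normalization, -0.13 at the next brightest probe sets and -0.23 to 0.081 without an array. That of the FACIT chains was 0.21 with the filter at the 50th percentile, -0.051 at the next brightest probe sets and 0.021 to 0.25 without an array. Without an array, the median was -0.26 to 0.11 for the basement membrane chains (main -0.08) and -0.16 to -0.032 for the other chains (main -0.07). Other settings moved 165 differences of named chains, of which 146 kept their direction and 19, over 10 chains, reversed; the block, the filters and the eBayes trend cannot move a difference. At the next brightest probe set these were Col20a1 (-0.15), Col25a1 (0.016), Col3a1 (0.27), Col4a4 (-0.065), Col5a1 (0.021) and Col8a1 (-0.11), and with the mean of all probe sets Col3a1 (0.040) and Col5a3 (-0.034). Without an array the difference ranged from -0.17 to 0.061 for Col25a1, -0.28 to 0.11 for Col4a1, -0.26 to 0.39 for Col4a4, -0.28 to 0.21 for Col5a2, -0.18 to 0.59 for Col5a3, -0.10 to 0.38 for Col8a1 and -0.14 to 0.39 for Col9a1. The cause of these changes was not tested. Signal over background limits what can be said of the 19 chains not above the Bacillus controls on all arrays.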
